A study of Homo sapiens with 4 samples.

Results

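The mRNA of 10 integrin subunits, ITGA2, ITGA3, ITGA5, ITGA6, ITGAV, ITGB1, ITGB3, ITGB4, ITGB5 and ITGB6, was compared between DU145 cells carrying the F133V form of SPOP and wild-type DU145 cells. The subunits were taken by gene symbol, with earlier results of these data known, and all 10 matched 1 gene ID each among 60614 IDs counted. DU145 is an established human prostate cancer cell line, grown here in EMEM with fetal bovine serum and antibiotics. The 2 groups were SPOP-F133V, with 2 libraries, and wild-type, with 2 libraries, each called replicate 1 and 2. SPOP selects proteins for ubiquitination by CUL3, and F133V is a missense form of it recurrent in prostate cancer. Whether the F133V line is 1 clone, a pool or an overexpression line is not stated in the labels, nor whether replicates came from separate cultures. The p-values therefore measure only the spread between these libraries, which may be technical, and the mutation cannot be told apart from how each line was made.

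Integrins are receptors that join the extracellular matrix to the actin or keratin cytoskeleton, and each is a pair of an alpha and a beta chain. In epithelial cells alpha3beta1 (ITGA3, ITGB1) and alpha6beta4 (ITGA6, ITGB4) bind laminin, alpha2beta1 (ITGA2, ITGB1) binds collagen, and alpha5beta1 (ITGA5, ITGB1) binds fibronectin. Among the beta chains listed here, the alphaV chain (ITGAV) pairs with beta1, beta3, beta5 or beta6. It binds RGD ligands such as vitronectin and latent TGF-beta. Beta4 anchors hemidesmosomes to keratin, whereas the other beta chains listed here reach actin through talin and kindlin.

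Between 35173245 and 39642063 reads per library fell in genes. SPOP was at 1171 and 1151 CPM (reads per 1000000 after TMM library scaling) in F133V cells, against 844 and 906 CPM in wild-type cells, a log2 fold change of 0.41 ± 0.055 (SE, edgeR BH-adjusted p = 2.70e-06). Gene counts do not separate mutant from wild-type SPOP, so they do not check the genotype. The epithelial markers KRT8, KRT18, KRT19, EPCAM and CDH1 summed to 2242 and 2440 CPM in F133V cells and 1834 and 1833 CPM in wild-type cells. All 5 were called higher in F133V cells with and without GC adjustment, beside 27.2% of all tested genes, or 27.6% GC-adjusted. The GC-adjusted log2 fold changes were 0.45 for CDH1, 0.29 for EPCAM, 0.12 for KRT8 and 0.09 for KRT19. KRT18 was at 0.08, next to the threshold (edgeR BH-adjusted p = 0.0475). The part of these markers in the integrin values was not tested. Hematopoietic markers summed to 1.43 to 2.58 CPM, endothelial to 0.168 to 0.708 CPM and fibroblast to 0.448 to 0.654 CPM in the 4 libraries. CD3E, HBB, DCN and LUM had 0 reads in each of the 4. Platelet markers summed to 7.44 and 7.65 CPM in F133V cells and 5.83 and 5.44 CPM in wild-type cells, mostly from ITGA2B, with GP9 at 0 reads. The prostate genes KLK2 and KLK3 had 0 reads in each library. In these bulk samples fewer cells of a type and less RNA per cell cannot be told apart.

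F133V cells had more mRNA of the beta chains ITGB3, ITGB5 and ITGB4 and of the alpha chains ITGA3 and ITGA5, and less of ITGA6, ITGAV, ITGB1 and ITGA2. The largest rise was 1.65-fold, for ITGB3, and the largest fall left ITGA6 at 0.658 of its wild-type level. Of 9 subunits that passed the filter on low counts, 5 were called higher and 4 lower (edgeR's quasi-likelihood F-test, threshold 0.05 on the BH-adjusted p), beside 27.2% higher and 27.6% lower among all 17539 tested genes, 54.8% in either direction. ITGB6 had too few reads to test. Direction followed transcript GC content: the 5 higher subunits had transcripts of 52.3% to 63.7% GC and the 4 lower ones of 38.3% to 42.9% GC, and this library-wide trend ran through all genes. A second fit with offsets for GC content and transcript length called 8 of the 9 higher and ITGA6 lower, beside 27.6% higher and 24.5% lower among 17299 tested genes, 52.2% in either direction. Without wild-type replicate 1 that fit called 5 higher. ITGB3, ITGB5, ITGB4, ITGA3 and ITGA5 were thus higher and ITGA6 lower in both fits, whereas ITGA2, ITGAV and ITGB1 were lower in the first fit and higher in the GC-adjusted fit. The library values of the genotypes did not overlap for any of the 10 subunits, which was also so for 78% of tested genes. After GC adjustment they did not overlap for the 9 tested subunits, beside 75.2% of genes. Of the 9, 0 were called with a change of 2-fold or more in either fit, beside 4.18% of genes higher and 2.81% lower, and 3.03% higher and 0.688% lower after GC adjustment.

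**Figure D1:**
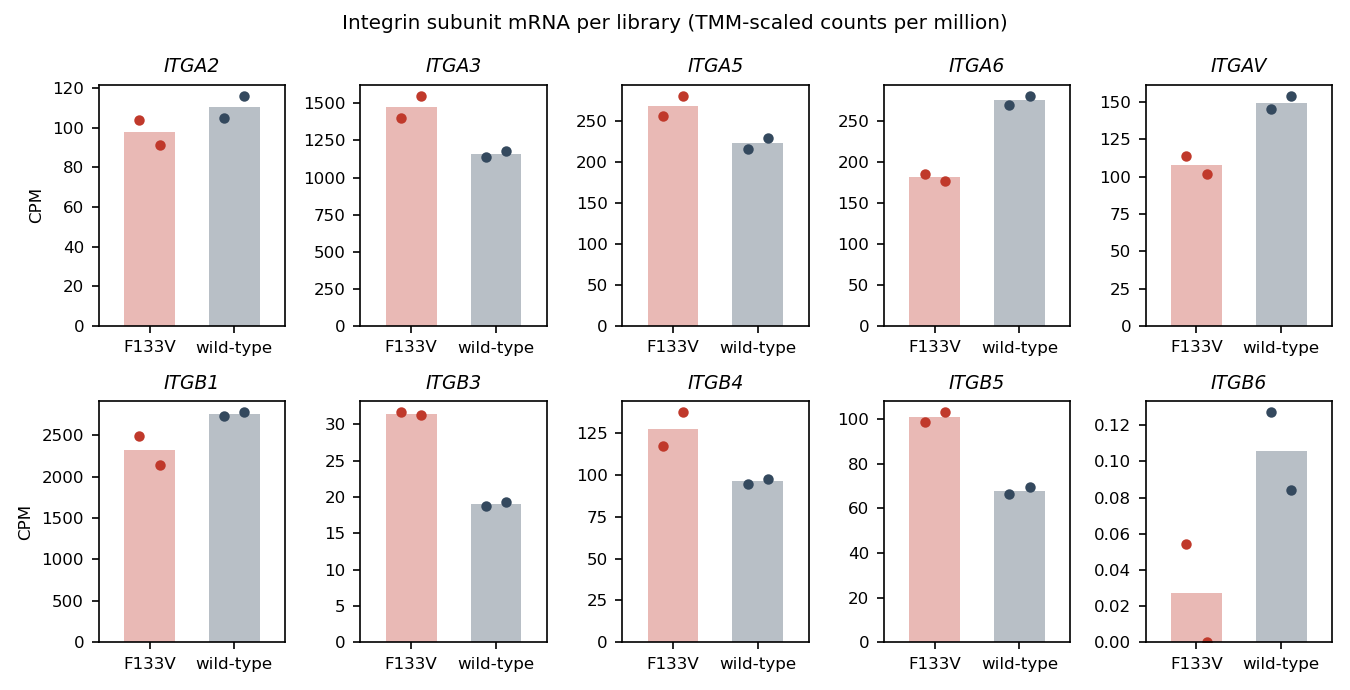
Level of each integrin subunit in TMM-scaled CPM, with F133V left and wild-type right in every panel; points are the 2 libraries of a genotype and bars their mean, and each panel has its own axis from 0. ITGB3 and ITGB5 stand higher in both F133V libraries, ITGA6 and ITGAV lower, and ITGB6 is near 0 in all 4 libraries.

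The subunits spanned a wide range of abundance. Per kilobase of the longest transcript in GENCODE 29, ITGB1 was the most abundant, at 612 ± 64.4 CPM per kilobase in F133V cells and 727 ± 8.48 CPM per kilobase in wild-type cells (SD, n = 2 each). ITGA3 came next, at 269 ± 19.3 in F133V cells and 212 ± 5.11 CPM per kilobase in wild-type cells (SD, n = 2 each). ITGA5 and ITGA6 came after them and stood in opposite order in the genotypes. In F133V cells ITGA5 was at 51.4 and 56.3 and ITGA6 at 33.1 and 31.4 CPM per kilobase, and in wild-type cells ITGA5 was at 43.3 and 46 and ITGA6 at 48.1 and 50 CPM per kilobase. Below them in F133V cells stood ITGB5 (22.6 and 23.5), ITGB4 (19.7 and 23.1), ITGAV (16.2 and 14.5), ITGA2 (13.2 and 11.6) and ITGB3 (7.91 and 7.8 CPM per kilobase). In wild-type cells the order was ITGAV (20.6 and 21.9), ITGB4 (16 and 16.5), ITGB5 (15.2 and 15.9), ITGA2 (13.3 and 14.8) and ITGB3 (4.72 and 4.83 CPM per kilobase). In GENCODE 29, 51.6% of ITGB3 exon bases also belong to another gene on the same strand. Reads there may be missing from the ITGB3 counts, so its level and rank per length may be understated in both genotypes. The F133V libraries of ITGB5 and ITGB4 overlapped, so their order there lay within the spread, and other neighbours did not overlap on this scale. The order below ITGA6 depended on the length used: per kilobase of exon union ITGB4 (18.7) stood above ITGB5 (15.6) in F133V cells, and ITGA2 (14) above ITGB5 (10.6 CPM per kilobase) in wild-type cells. Among the 5 beta chains ITGB1 made up 92.9% and 91.2% of the summed level per length in F133V cells, and 95.2% and 95.2% in wild-type cells. Among the 5 alpha chains ITGA3 made up 69.2% and 71.3% in F133V cells, and 62.4% and 61.9% in wild-type cells. ITGA6 made up 8.97% and 7.92% of the alpha chains in F133V cells, and 14.4% and 14.4% in wild-type cells.

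RefSeq promoter windows on GRCh38.p14 were found for 7 of the 10 subunits, and are printed for 4 of them: the most and least abundant members, ITGB1 and ITGB6, and a member higher and a member lower in both fits, ITGB5 and ITGA6. Each sequence is the 250 bases before the start site farthest upstream among those in the RefSeq table, on the gene's own strand, with GC boxes (GGGCGG, either strand) in capitals. The ITGB1 window is chr10:32958231-32958480 (minus strand), the ITGB6 window chr2:160200273-160200522 (minus strand), the ITGB5 window chr3:124901419-124901668 (minus strand) and the ITGA6 window chr2:172427086-172427335 (plus strand). The ITGB1 window lies inside the gene as GENCODE 29 draws it, which starts farther upstream.
ITGB1: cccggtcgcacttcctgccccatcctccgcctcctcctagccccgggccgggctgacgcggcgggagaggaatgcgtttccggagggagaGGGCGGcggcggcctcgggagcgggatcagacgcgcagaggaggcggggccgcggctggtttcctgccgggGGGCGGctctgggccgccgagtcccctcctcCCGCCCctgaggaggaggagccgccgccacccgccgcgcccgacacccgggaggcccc
ITGB6: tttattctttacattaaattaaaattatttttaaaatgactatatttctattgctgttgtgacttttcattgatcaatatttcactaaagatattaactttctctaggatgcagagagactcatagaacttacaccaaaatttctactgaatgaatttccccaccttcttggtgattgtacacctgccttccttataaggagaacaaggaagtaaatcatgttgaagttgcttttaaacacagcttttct
ITGB5: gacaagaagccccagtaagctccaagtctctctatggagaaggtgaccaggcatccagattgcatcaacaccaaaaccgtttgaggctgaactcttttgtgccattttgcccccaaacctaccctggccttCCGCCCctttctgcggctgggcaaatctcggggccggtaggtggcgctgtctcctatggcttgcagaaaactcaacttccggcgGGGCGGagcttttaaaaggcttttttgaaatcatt
ITGA6: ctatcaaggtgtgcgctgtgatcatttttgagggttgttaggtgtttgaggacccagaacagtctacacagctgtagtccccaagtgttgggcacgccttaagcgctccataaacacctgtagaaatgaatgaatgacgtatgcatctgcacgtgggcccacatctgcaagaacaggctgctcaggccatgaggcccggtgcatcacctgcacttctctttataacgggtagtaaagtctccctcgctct
The ITGB1 window held 78.4% GC, 32 CpG dinucleotides and 3 GC boxes, and the ITGB6 window 30% GC, 0 CpG dinucleotides and 0 GC boxes. The ITGB5 window held 52.8% GC and 2 GC boxes, and the ITGA6 window 50.8% GC and 0 GC boxes. A GC box was found in 42.6% of 35116 windows of the same length. The AP-1 motif TGANTCA was found in none of the 7 windows and in 6.57% of all windows, and the TEAD motif GGAATG in those of ITGA5 and ITGB1 and in 11.9% of all windows (either strand). Such matches describe letters only and show no binding.

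Of the laminin-binding chains, ITGA3 and ITGB4 were higher and ITGA6 was lower in F133V cells. Positions are those of GENCODE 29 on GRCh38. ITGA3 (ENSG00000005884.18, chromosome 17, 50055968 to 50090481, plus strand), the alpha chain of the laminin-332 receptor alpha3beta1, had 1401 and 1550 CPM in F133V cells, against 1141 and 1181 CPM in wild-type cells. Both F133V libraries stood above both wild-type libraries. The log2 fold change of ITGA3 was 0.35 ± 0.057 (SE, edgeR BH-adjusted p = 3.38e-05), and 0.12 ± 0.033 after GC adjustment (adjusted p = 0.00287), a call lost without wild-type replicate 1 (0.10, adjusted p = 0.103). ITGA3 starts 377734 bases from the end of SPOP on chromosome 17. ITGB4 (ENSG00000132470.14, chromosome 17, 75721328 to 75757818, plus strand), the hemidesmosomal beta chain with a long cytoplasmic tail, had 117 and 137 CPM in F133V cells, against 94.6 and 97.6 CPM in wild-type cells. For ITGB4 the spread was wider among F133V than among wild-type replicates, and the genotypes did not overlap. Its log2 fold change was 0.40 ± 0.072 (adjusted p = 8.67e-05), and 0.16 ± 0.038 after GC adjustment (adjusted p = 6.38e-04).

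ITGA6 (ENSG00000091409.15, chromosome 2, 172427354 to 172506282, plus strand), which pairs with ITGB4 in hemidesmosomes and with ITGB1 elsewhere, had 186 and 177 CPM in F133V cells, against 270 and 281 CPM in wild-type cells. Both F133V libraries lay well below both wild-type libraries. The log2 fold change of ITGA6 was -0.60 ± 0.059 (adjusted p = 4.03e-08), the lowest adjusted p among the lower subunits, and -0.29 ± 0.034 after GC adjustment (adjusted p = 1.61e-09). GC-adjusted, ITGA6 levels were 200 and 204 CPM in F133V cells and 244 and 252 CPM in wild-type cells. ITGA6 was called lower in 15 of 15 alternative fits, with log2 fold changes from -0.67 to -0.27. Its exons overlap 3 antisense genes in GENCODE 29 by at most 174 bases, and whether counting used strand is not stated in the labels.

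The common beta chain ITGB1 and the collagen receptor chain ITGA2 were lower before GC adjustment and higher after it. ITGB1 (ENSG00000150093.20, chromosome 10, 32900319 to 33005792, minus strand), the partner of most alpha chains, had 2489 and 2145 CPM in F133V cells, against 2727 and 2772 CPM in wild-type cells. The gap between the F133V replicates exceeded that between F133V replicate 1 and either wild-type library. Its log2 fold change was -0.25 ± 0.061 (adjusted p = 0.00183), and 0.23 ± 0.034 after GC adjustment (adjusted p = 2.06e-07), where levels were 2798 and 2670 CPM in F133V cells and 2314 and 2336 CPM in wild-type cells. The unadjusted log2 fold change was -0.39 without F133V replicate 1 and -0.14 without F133V replicate 2, where the spread comes from the closer wild-type replicates, and with upper-quartile scaling it was -0.14 and missed the threshold (adjusted p = 0.0653). Its processed pseudogene ITGB1P1 had 0 reads in the 4 libraries.

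ITGA2 (ENSG00000164171.11, chromosome 5, 52989326 to 53094779, plus strand) had 104 and 91.3 CPM in F133V cells, against 105 and 116 CPM in wild-type cells. F133V replicate 1 and wild-type replicate 1 were almost level. The log2 fold change of ITGA2 was -0.18 ± 0.072 (adjusted p = 0.0449), next to the threshold. It was -0.30 without F133V replicate 1, -0.09 without F133V replicate 2 (adjusted p = 0.0593, from the wild-type spread), -0.25 without wild-type replicate 1 (adjusted p = 0.102) and -0.10 without wild-type replicate 2 (adjusted p = 0.562). After GC adjustment it was 0.36 ± 0.041 (adjusted p = 9.30e-10), the opposite direction, with 119 and 116 CPM in F133V cells and 87.1 and 96 CPM in wild-type cells. ITGA5 (ENSG00000161638.11, chromosome 12, 54395261 to 54419460, minus strand), the fibronectin receptor alpha chain, had 257 and 281 CPM in F133V cells, against 216 and 230 CPM in wild-type cells. Both F133V libraries of ITGA5 were higher, by a log2 fold change of 0.27 ± 0.062 (adjusted p = 9.60e-04), and 0.12 ± 0.035 after GC adjustment (adjusted p = 0.00379). Without wild-type replicate 1 ITGA5 gave 0.22 and missed the threshold (adjusted p = 0.124), as it did with GC adjustment as well (0.08, adjusted p = 0.223).

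Among the alphaV receptors, the beta chains ITGB3 and ITGB5 had the highest fold changes of all 9 tested subunits in both fits. ITGB3 (ENSG00000259207.9, chromosome 17, 47253846 to 47311816, plus strand), the beta chain of the vitronectin receptor, had 31.6 and 31.2 CPM in F133V cells, against 18.8 and 19.3 CPM in wild-type cells. The replicates of each genotype were nearly equal and the genotypes lay far apart. Its log2 fold change was 0.72 ± 0.078 (adjusted p = 1.55e-07), and 0.61 ± 0.058 after GC adjustment (adjusted p = 1.30e-11). In GENCODE 29, 51.6% of ITGB3 exon bases also belong to AC068234.1 on the same strand. That gene had 0 reads in the 4 libraries, and reads assigned to more than 1 gene stand in a tally outside the gene counts, so reads over the shared exons may be missing from ITGB3 in each library. ITGB5 (ENSG00000082781.12, chromosome 3, 124761948 to 124901418, minus strand), another vitronectin-binding beta chain, had 98.8 and 103 CPM in F133V cells, against 66.6 and 69.5 CPM in wild-type cells. Both F133V libraries stood well above the wild-type ones, with a log2 fold change of 0.57 ± 0.065 (adjusted p = 3.63e-07), and 0.41 ± 0.04 after GC adjustment (adjusted p = 1.85e-11).

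ITGAV (ENSG00000138448.12, chromosome 2, 186590065 to 186680901, plus strand), the alpha chain they share, had 114 and 102 CPM in F133V cells, against 145 and 154 CPM in wild-type cells. Both F133V libraries were lower, by a log2 fold change of -0.47 ± 0.066 (adjusted p = 5.22e-06), but ITGAV was higher after GC adjustment, at 0.16 ± 0.037 (adjusted p = 2.78e-04). The GC-adjusted call was lost without wild-type replicate 1 (0.13, adjusted p = 0.051). Of the 9 tested subunits ITGAV had the lowest transcript GC content, 38.3%. ITGB6 (ENSG00000115221.12, chromosome 2, 160099666 to 160200313, minus strand), the epithelial beta chain of a receptor that activates latent TGF-beta, had 2 and 0 reads in F133V cells, against 5 and 3 reads in wild-type cells. A count of 0 allows up to 3 reads, or 0.085 CPM in F133V replicate 2, by counting error only. Tested without the filter on low counts, ITGB6 gave an edgeR BH-adjusted p of 0.293, so a difference was not detectable at this depth.

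**Figure D2:**
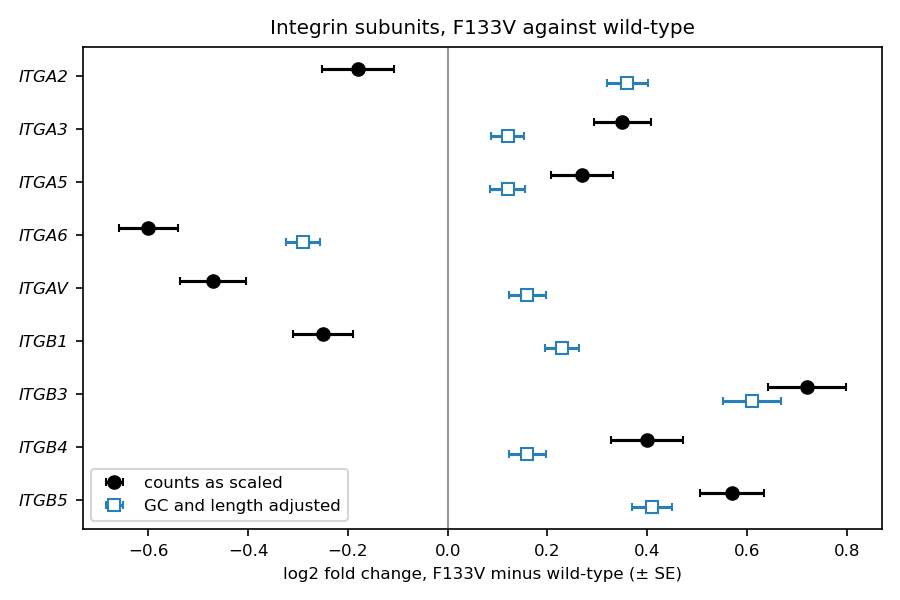
Log2 fold change of the 9 tested subunits, F133V minus wild-type, with bars for the SE; filled circles are from counts as scaled and open squares from the GC- and length-adjusted fit. ITGB3 and ITGB5 lie farthest right in both, ITGA6 is left of 0 in both, and ITGA2, ITGAV and ITGB1 lie left of 0 only in the fit without GC adjustment.

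The GC trend was measured over all tested genes. The median log2 fold change was -0.64 among the 10% of genes with the least GC (median 37% GC) and 0.34 among the 10% with the most (64.2% GC), and after adjustment the medians of the 10 GC classes lay between -0.00 and 0.04. The offset took -0.63 from ITGAV, -0.54 from ITGA2, -0.48 from ITGB1 and -0.31 from ITGA6 on the log2 scale, and 0.11 to 0.24 from the 5 subunits that were higher. The same trend separated the F133V replicates: replicate 2 minus replicate 1 was 0.23 for ITGB4 and 0.15 for ITGA3, and -0.22 for ITGB1 and -0.19 for ITGA2, on the log2 scale. After adjustment these differences were 0.07 for ITGB4, 0.01 for ITGA3, -0.07 for ITGB1 and -0.03 for ITGA2. Between the wild-type replicates the 9 subunits differed by 0.02 to 0.15 before adjustment. An offset of this kind also removes any difference between genotypes that follows GC content, and which fit is nearer to the cells was not tested.

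**Figure D3:**
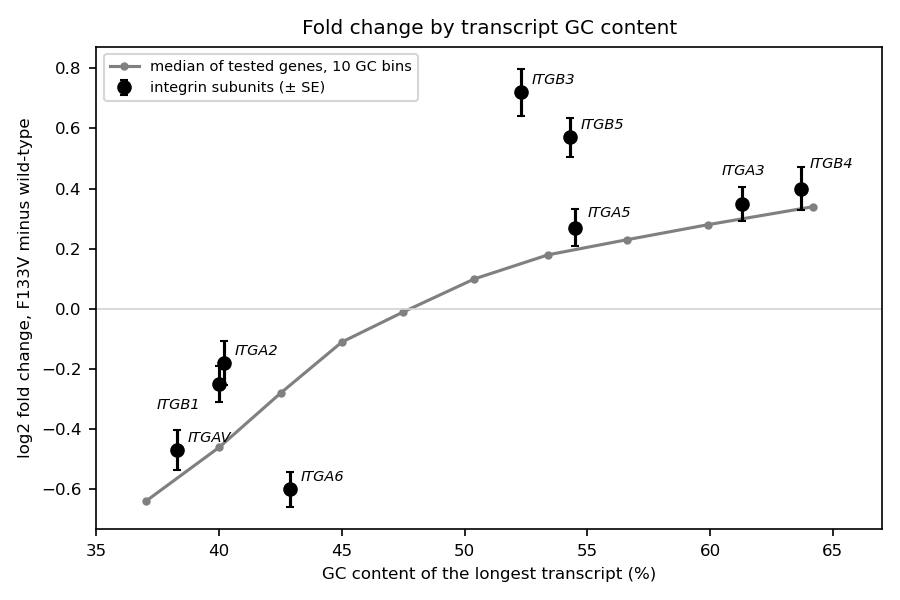
Log2 fold change (F133V minus wild-type, bars are SE) of the 9 tested subunits against the GC content of the longest transcript in percent; the grey line joins the medians of all tested genes in 10 bins of GC content. ITGA3, ITGA5 and ITGB4 lie near the line, ITGB3, ITGB5, ITGA2 and ITGB1 above it and ITGA6 below it.

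Ratios of partner chains within a library were compared, since beta and alpha chains are needed together at the surface. The ITGB4 to ITGA6 ratio of levels per length was 0.595 and 0.736 in F133V cells, and 0.332 and 0.33 in wild-type cells. ITGB4 mRNA therefore stood below ITGA6 mRNA in all 4 libraries and nearer to it in F133V cells. The ITGB5 to ITGAV ratio was 1.4 and 1.62 in F133V cells, and 0.739 and 0.727 in wild-type cells. ITGB5 thus exceeded ITGAV in the F133V libraries and lay below it in the wild-type ones. Per kilobase of exon union the order was the same, with ITGB5 at 15.6 and ITGAV at 13.1 CPM per kilobase in F133V cells, and ITGB5 at 10.6 and ITGAV at 18.2 CPM per kilobase in wild-type cells. The ITGB3 to ITGAV ratio was 0.489 and 0.537 in F133V cells, and 0.229 and 0.22 in wild-type cells. Because reads over shared exons may be missing from ITGB3, the size of this ratio may be understated in each library. These 3 ratios differed by 1.00, 1.04 and 1.19 on the log2 scale, F133V minus wild-type, and by 0.45, 0.25 and 0.44 after GC adjustment. The ITGB1 to ITGA3 ratio was 2.57 and 2 in F133V cells, and 3.46 and 3.4 in wild-type cells, a log2 difference of -0.59 that turned to 0.12 after GC adjustment. ITGB1 to ITGA5 likewise gave -0.52 and then 0.11. ITGB1 to ITGA2 differed by -0.07, less than the spread of the wild-type replicates (SD 0.09). After GC adjustment it differed by -0.13 (SD 0.03 in F133V and 0.09 in wild-type cells). With 2 libraries against 2 an exact permutation test cannot give a two-sided p below 0.333, so the ratios are given as a description.

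**Figure D4:**
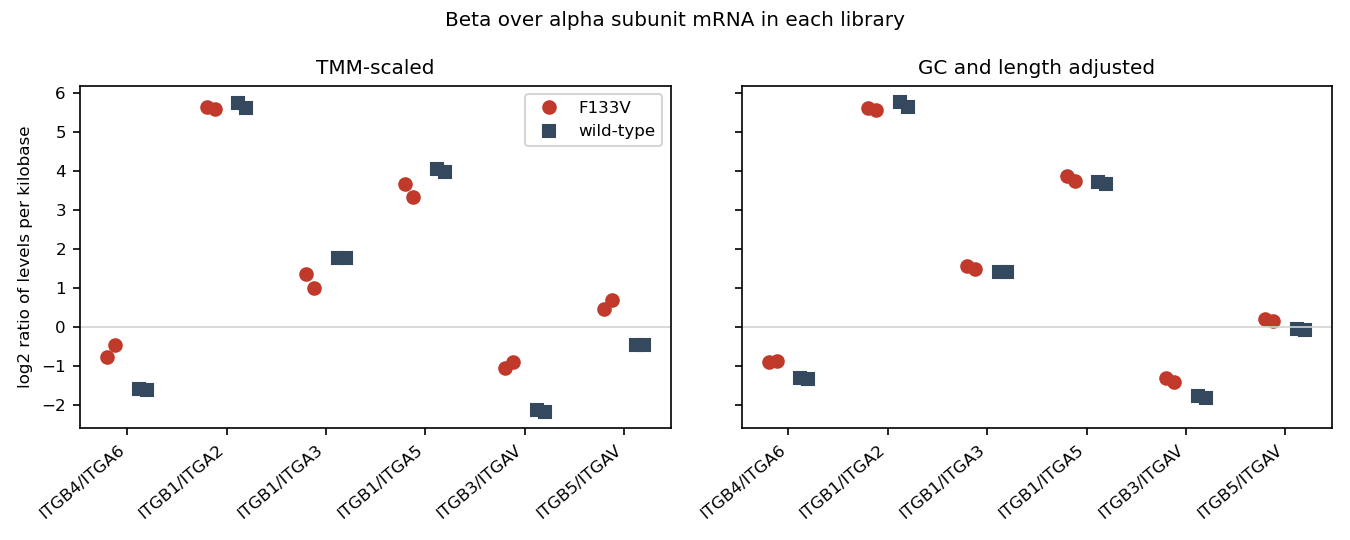
Log2 ratio of beta over alpha chain level per kilobase in each library, from TMM-scaled CPM (left panel) and after GC and length adjustment (right panel); circles are F133V libraries and squares wild-type libraries. ITGB4/ITGA6, ITGB3/ITGAV and ITGB5/ITGAV are higher in F133V libraries in both panels, while ITGB1/ITGA3 and ITGB1/ITGA5 change order between panels.

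Of 16 other integrin subunits 12 were tested, and 8 were called higher and 0 lower in each fit, 66.7% beside 54.8% of all genes (52.2% GC-adjusted). The median log2 fold change was 0.63 (0.62 GC-adjusted), beside 0.02 for all tested genes. The 8 were not all the same genes. ITGA2B was called only before GC adjustment (0.41, then 0.15) and ITGA1 only after it (0.22, then 0.87), both named after their values were seen. The leukocyte beta chain ITGB2 had 68.6 and 72.9 CPM in F133V cells, against 47.9 and 46.9 CPM in wild-type cells (log2 fold change 0.58 ± 0.069, GC-adjusted 0.34). Its leukocyte partners were scarce: ITGAM had 0.599 and 0.793 CPM in F133V cells against 0.306 and 0.252 CPM in wild-type cells, and ITGAX 1.47 and 0.878 CPM in F133V cells against 0.331 and 0.645 CPM in wild-type cells. PTPRC, a defining leukocyte marker, was at or below 0.0272 CPM in each library, and the 6 hematopoietic markers summed to 2.15 and 2.58 CPM in F133V cells and 1.43 and 1.96 CPM in wild-type cells. Their part in these values was not tested. With the DESeq2 Wald test 3 of the 12 were called higher. ITGAX (log2 fold change 1.29) and ITGAM (1.30) were among those that missed there (BH-adjusted p = 0.0591 for ITGAX and 0.122 for ITGAM). Without F133V replicate 1 ITGAX also missed (0.83, edgeR BH-adjusted p = 0.0528), and the GC-adjusted fit then called 5 of the 12 higher. The laminin-binding ITGA7 had 5.99 and 5.33 CPM in F133V cells, against 3.39 and 2.86 CPM in wild-type cells (0.85 ± 0.14, GC-adjusted 0.61). ITGA9, a tenascin-binding chain, had 1.5 and 2.07 CPM in F133V cells, against 0.79 and 0.813 CPM in wild-type cells (1.15 ± 0.23, GC-adjusted 1.19).

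The lists of cytoplasmic partners held called genes of both directions, and their called shares are read beside 54.8% of all genes, or 52.2% after GC adjustment. Of 28 activators and actin adaptors 11 were higher and 7 lower (median log2 fold change 0.03), and 12 higher and 7 lower after GC adjustment, a called share of 64.3% (67.9% GC-adjusted), near that of all genes. Before GC adjustment 5 were higher without wild-type replicate 1, 6 without wild-type replicate 2 and 7 with the DESeq2 Wald test, and with it 6 were higher without wild-type replicate 1. FERMT2, the kindlin of most adherent cells, had 84.5 and 73.9 CPM in F133V cells, against 162 and 167 CPM in wild-type cells, a log2 fold change of -1.05 ± 0.069 (adjusted p = 3.32e-10) and -0.36 after GC adjustment (adjusted p = 6.65e-11). The small GTPase RAP1B was called lower (-0.64 ± 0.062) but not after GC adjustment (0.06, adjusted p = 0.165). APBB1IP, which links RAP1 to talin, was at 1.83 and 1.84 CPM in F133V cells, against 0.357 and 0.476 CPM in wild-type cells (log2 fold change 2.14 ± 0.25, GC-adjusted 1.98). LIMS2, a partner of integrin-linked kinase, also rose (1.25 ± 0.15, GC-adjusted 1.00). Of 20 signalling kinases and adaptors 8 were higher and 7 lower (median -0.02), and 9 higher and 7 lower after GC adjustment, 75% called (80% GC-adjusted). Without wild-type replicate 2 the unadjusted counts were 4 higher and 3 lower, and 3 were lower without wild-type replicate 1 or with upper-quartile scaling. The SRC-family kinase YES1 had 114 and 95 CPM in F133V cells, against 215 and 216 CPM in wild-type cells (-1.04 ± 0.072, GC-adjusted -0.43). Its relative FYN rose (0.79 ± 0.11, GC-adjusted 0.77), as did PTK2B, a kinase related to FAK (0.68 ± 0.074, GC-adjusted 0.50), and the adaptor SHC1 (0.43 ± 0.054, GC-adjusted 0.21). NEDD9, an adaptor of FAK, was at 1.04 and 0.708 CPM in F133V cells, against 0.458 and 0.308 CPM in wild-type cells (1.17 ± 0.32), and missed with the DESeq2 Wald test (BH-adjusted p = 0.12). Of 6 genes listed as inactivators or their partners 3 were higher and 2 lower (median 0.16), and 2 higher and 2 lower after GC adjustment. Without wild-type replicate 1 or wild-type replicate 2, 1 was lower before GC adjustment and 1 was higher after it. KRIT1, listed as a partner of the beta1 inhibitor ITGB1BP1 and not as an inhibitor itself, fell (-1.31 ± 0.13, GC-adjusted -0.73). SHARPIN (0.30) and DOK1 (0.45) were called higher and missed after GC adjustment, at -0.09 (adjusted p = 0.0715) and 0.15 (adjusted p = 0.13).

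Among hemidesmosome partners DST was called lower in both fits. DST, whose epithelial form is a hemidesmosomal plakin, had 364 and 291 CPM in F133V cells, against 696 and 676 CPM in wild-type cells, a log2 fold change of -1.07 ± 0.075 (adjusted p = 7.58e-10) and -0.59 after GC adjustment (adjusted p = 3.11e-16). Of 4 tested hemidesmosome partners 2 were higher and 1 lower (median 0.06), and 0 higher and 2 lower after GC adjustment. The called share was 75% and then 50%, beside 54.8% and 52.2% of all genes. Before GC adjustment 1 was higher without F133V replicate 2, wild-type replicate 1 or wild-type replicate 2, and 2 were lower without F133V replicate 2. CD151 (0.36) and COL17A1 (0.22) were called higher and missed after GC adjustment, each at 0.05 (adjusted p = 0.252 for CD151 and 0.478 for COL17A1). The other lower gene there, named after its values were seen, was PLEC, the linker between beta4 and keratin, at -0.10 (not called) and -0.34 after GC adjustment (adjusted p = 1.62e-11). The basal keratins KRT5 and KRT14 had at most 1 read each in any library. Of 11 tested trafficking genes 1 was higher and 6 lower (median -0.18), 63.6% called beside 54.8% of all genes, and 4 higher and 5 lower after GC adjustment, 81.8% called beside 52.2%. The median GC content of the list was 42.7%, and all genes of the GC class with a median of 42.5% had a median log2 fold change of -0.28, so the list's median was not below theirs. Without F133V replicate 1, 2 were higher before GC adjustment. RASA1, which promotes the return of beta1 integrins to the surface, fell (-0.75 ± 0.079, GC-adjusted -0.50), as did clathrin heavy chain CLTC (-0.57 ± 0.062, GC-adjusted -0.14) and ARF6 (-0.51 ± 0.055, GC-adjusted -0.21). RAB21, which binds alpha chains in early endosomes, was lower (-0.60 ± 0.07) and turned to 0.13 after GC adjustment (adjusted p = 0.0234).

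**Figure D5:**
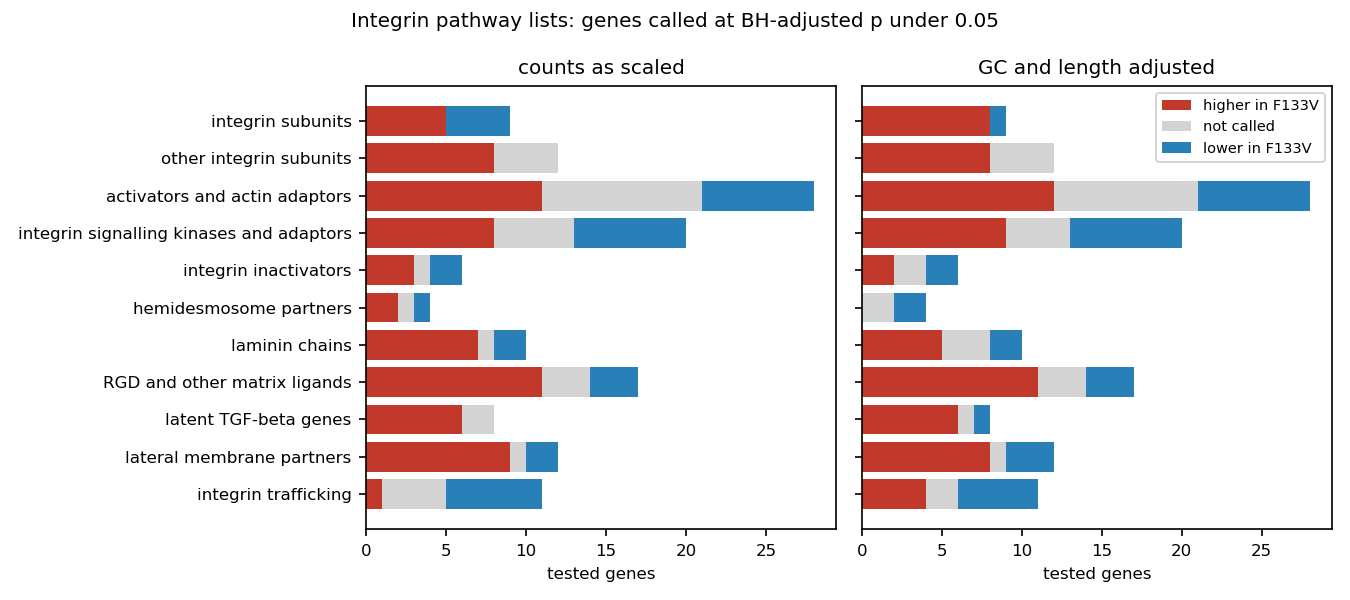
Number of tested genes called higher (red), lower (blue) or not called (grey) in F133V cells, for the integrin subunits and 10 lists of partner and ligand genes, from counts as scaled (left panel) and after GC and length adjustment (right panel). Integrin subunits, other integrin subunits, latent TGF-beta genes, lateral membrane partners and matrix ligands hold mostly higher genes in both panels.

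Of 17 tested matrix ligands 11 were higher and 3 lower (median log2 fold change 0.38, GC-adjusted 0.28). After GC adjustment 11 were higher and 3 lower, not all the same genes. In each fit 82.4% were called, beside 54.8% of all genes (52.2% GC-adjusted). Without wild-type replicate 2, 7 were higher before GC adjustment. COL1A1 was called higher only before GC adjustment (0.30, then 0.10) and SPP1 only after it (0.54, then 0.84). Both were named after their values were seen. MFGE8, a ligand of alphaVbeta3 and alphaVbeta5, had 129 and 134 CPM in F133V cells, against 76.3 and 77.6 CPM in wild-type cells (0.78 ± 0.063, GC-adjusted 0.65). FBLN5, another RGD protein, rose (0.95 ± 0.11, GC-adjusted 0.82), as did the basement membrane collagen COL4A2 (0.55 ± 0.068, GC-adjusted 0.34). THBS1 fell, with 63.5 and 61.4 CPM in F133V cells against 103 and 101 CPM in wild-type cells (-0.71 ± 0.065, GC-adjusted -0.53). VWF was called at 0.056 to 0.397 CPM, and missed without wild-type replicate 2 (1.73, adjusted p = 0.0755). Of 10 tested laminin chains 7 were higher and 2 lower (median 0.23), and 5 higher and 2 lower after GC adjustment, 90% and then 70% called, beside the same shares of all genes. Leaving out wild-type replicate 1 gave 3 higher and 0 lower chains before GC adjustment, leaving out wild-type replicate 2 gave 4 higher and 0 lower, and upper-quartile scaling gave 0 lower. Called higher in both fits were LAMB2 (0.43 ± 0.062, GC-adjusted 0.22), LAMC3 (0.63 ± 0.092, GC-adjusted 0.39) and LAMB1 (0.35 ± 0.067, GC-adjusted 0.34).

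Of 8 tested genes listed under latent TGF-beta, a ligand of alphaV integrins, 6 were higher and 0 lower (median 0.53), and 6 higher and 1 lower after GC adjustment. This was 75% and then 87.5% called, beside 54.8% and 52.2% of all genes. The list takes in LTBP1, LTBP2, LTBP3 and LTBP4 as a family, and which of them bind latent TGF-beta was not tested. LTBP3 had 115 and 127 CPM in F133V cells, against 72.1 and 71 CPM in wild-type cells (0.76 ± 0.067, GC-adjusted 0.41). LTBP2 (0.62 ± 0.063, GC-adjusted 0.48), LTBP4 (0.56 ± 0.065, GC-adjusted 0.25) and LTBP1 (0.51 ± 0.082, GC-adjusted 0.45), members of the latent TGF-beta binding protein family, rose too. LRRC32, a membrane anchor of latent TGF-beta, was at 0.572 and 0.652 CPM in F133V cells, against 0.229 and 0.252 CPM in wild-type cells (1.34 ± 0.36), and missed with the DESeq2 Wald test (BH-adjusted p = 0.139) and, in edgeR, without wild-type replicate 1 (adjusted p = 0.0571). The 6 higher genes were not all the same in each fit. TGFB1, TGFB2 and TGFB3 were named after their values were seen. TGFB1 was called higher (0.21 ± 0.064) and, after GC adjustment, lower (-0.08, edgeR BH-adjusted p = 0.0495). TGFB2 was not called before GC adjustment (0.12, adjusted p = 0.188) and was called higher after it (0.68, adjusted p = 1.01e-14). TGFB3 was called in neither fit (0.09, GC-adjusted 0.03). Of 12 lateral membrane partners 9 were higher and 2 lower (median 0.37), and 8 higher and 3 lower after GC adjustment, 91.7% called in each fit. Without wild-type replicate 1 or wild-type replicate 2, 1 was lower before GC adjustment. The tetraspanin CD82 had 37.2 and 38.7 CPM in F133V cells, against 18.8 and 17.6 CPM in wild-type cells (1.06 ± 0.079, GC-adjusted 0.78). The tetraspanin CD9 (0.52 ± 0.059, GC-adjusted 0.37) and BSG, an immunoglobulin-family partner of alpha3beta1 (0.47 ± 0.058, GC-adjusted 0.17), rose. Caveolin CAV1 fell, with 271 and 261 CPM in F133V cells against 445 and 447 CPM in wild-type cells (-0.75 ± 0.056, GC-adjusted -0.68).

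The genes whose profile over the 4 libraries was nearest to that of ITGB3 and of ITGA6, the higher and the lower subunit of lowest adjusted p, were found by Euclidean distance of centred log2 CPM among genes with a mean of at least 5 CPM. For ITGB3 they were GRAMD1B, NEU1, ZFP36L1, RIPK4 and ZP3, at distances of 0.00884 to 0.0343. For ITGA6 they were CAV2, GLRX2, BPNT2, NEK2 and RNF19A, at 0.012 to 0.0235. In all, 100 genes lay within a distance of 0.1 of ITGB3 and 381 of ITGA6, so 4 libraries distinguish few profiles. The 5 neighbours of ITGB3 stayed above 0 after GC adjustment (0.49 to 0.72), whereas those of ITGA6 ranged from -0.31 for NEK2 to 0.07 for GLRX2.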

How the data were processed

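RNA-seq of 4 DU145 libraries, 2 SPOP-F133V and 2 wild-type, gave raw read counts per gene as deposited; TopHat2 2.0.10, HTSeq 0.6.0 and hg38 are named in the submitters' processing notes, while the annotation release and strand setting were not given in the sources used here. HTSeq's tallies outside genes were kept out of library sizes and tests: reads in no gene were 6.12 to 6.53%, ambiguous reads 3.5 to 3.73% and reads not aligned uniquely 13.6 to 16.6%.

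The counts were scaled by TMM and tested with edgeR 4.0.16's quasi-likelihood test in R 4.3.3, after edgeR's default filter on low counts. Each p-value was Benjamini-Hochberg adjusted over all tested genes, with a threshold of 0.05, and the SE is the log2 fold change over the square root of F. The GC-adjusted fit added per-library offsets smoothed (mgcv 1.9.3) on GC content and length of the longest GENCODE 29 transcript, known for 98.6% of tested genes. It was planned as an alternative, and also removes any difference that truly follows GC content. DESeq2 1.42.0 was another alternative.

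The members and lists were chosen with earlier results of these data known. Named from each list were up to 4 called genes of lowest adjusted p and any called gene changed at least 2-fold; other names are marked, and some genes this rule names are not reported here. Of 60614 IDs, 60444 had a symbol. Floors cover counting error only.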

Additional observations from a re-analysis of the deposited data

How the results depend on the processing

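ITGA6, ITGB3, ITGB4 and ITGB5 were called in the same direction in 15 of 15 alternatives, ITGA3 in 14, ITGA5 in 13, ITGAV in 9, ITGB1 in 8 and ITGA2 in 3. The GC-adjusted fits gave 8 members higher and 1 lower, also with the replicate block or without F133V replicate 1, F133V replicate 2 or wild-type replicate 2, and 5 higher and 1 lower without wild-type replicate 1. Leaving out 1 library without GC adjustment gave 4 to 5 higher and 3 to 4 lower, and upper-quartile scaling 2 lower.

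Directions reversed under GC adjustment alone, and likewise with the replicate block: ITGA2 0.36, ITGAV 0.16, ITGB1 0.23, RAP1B 0.06, SHARPIN -0.09 and RAB21 0.13 (log2). Without F133V replicate 1 these were 0.31, 0.14, 0.17, 0.07, -0.14 and 0.16, and CD151 was -0.01. Without F133V replicate 2 they were 0.36, 0.14, 0.26, 0.01, -0.07 and 0.07. Without wild-type replicate 1 they were 0.29, 0.13, 0.23, 0.07, -0.09 and 0.15, and without wild-type replicate 2 they were 0.43, 0.20, 0.24, 0.06, -0.10 and 0.10. On the GC-adjusted scale the log2 ratio differences were 0.12 for ITGB1/ITGA3 and 0.11 for ITGB1/ITGA5, both reversed, 0.45 for ITGB4/ITGA6, 0.44 for ITGB3/ITGAV and 0.25 for ITGB5/ITGAV. The cause was not tested.

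Over all genes, 4763 were higher and 4841 lower, against 6462 and 3831 with upper-quartile scaling, under which the all-gene median log2 change was 0.13, against 0.02. DESeq2's Wald test called 2954 higher, and leaving out 1 library gave 2786 to 5225 higher and 3551 to 5631 lower (higher fell to 2819 without wild-type replicate 1 and to 2786 without wild-type replicate 2). The pathway lists together held 66 higher and 30 lower genes, and 43 to 67 higher and 19 to 36 lower without 1 library. Where 1 library was left alone in a group, it was assumed to vary like the other group, although chi-square over degrees of freedom was 8.38 between the F133V replicates and 1.71 between the wild-type replicates, so p-values without an F133V library rest on the smaller spread.

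Per kilobase of exon union, levels were (F133V, then wild-type) 150 and 118 for ITGA3, 35.5 and 29.5 for ITGA5, 27.8 and 42.2 for ITGA6, 13.1 and 18.2 for ITGAV, 12.3 and 14 for ITGA2, 385 and 457 for ITGB1, 7.14 and 4.34 for ITGB3, 18.7 and 14.2 for ITGB4, and 15.6 and 10.6 for ITGB5 CPM per kilobase.

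The replicate block gave 4619 higher and 4746 lower genes over all and changed no member's call (5 higher, 4 lower). Deviations of same-numbered libraries correlated at -0.0482, so the numbers were not taken as pairs. Depth limits ITGB6, at 0 to 5 reads, and ITGAM, ITGAX, NEDD9, LRRC32 and VWF, whose calls were lost in at least 1 alternative.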

Other observations

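SPOP and ITGA3 lie near each other on chromosome 17. Within 1000000 bases on each side of SPOP, a window chosen after values were seen, 48 other genes were tested, of which 27 were higher and 4 lower in F133V cells, with a median log2 fold change of 0.32. After GC adjustment 25 were higher and 7 lower, with a median of 0.21, beside 27.6% higher and 24.5% lower among all tested genes.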
